A study of Mus musculus with 6 samples.

Results

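The glucocorticoid receptor gene Nr3c1 and 9 of its target genes (Fkbp5, Tsc22d3, Per1, Sgk1, Klf9, Ddit4, Cebpd, Zbtb16 and Hsd11b1) were followed on 6 microarrays of the mouse macrophage line RAW264.7. The 10 genes were chosen by name, because the series title lists glucocorticoid signalling among the inducers of Ms4a8a, a relative of the B-cell antigen CD20. Each had 1 probe set, and all 10 were found among the 16387 named genes of the deposited table. The 2 groups were 3 arrays of clone 8, which stably carries a recombinant Ms4a8a cDNA in an expression vector, and 3 arrays of clone 3, which carries that vector empty. Both clones came from lipofection and blasticidin selection, and both were kept for 48 h in medium with 10% fetal calf serum. The labels name no added glucocorticoid in either group. Each group was 1 clone, so the transfected gene and the clone cannot be told apart. The array titles number the arrays 1, 2 and 3 in each clone, and the clones were compared over all arrays and at each number.

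The glucocorticoid receptor is a nuclear receptor that waits in the cytoplasm in a complex with heat shock proteins and immunophilins. On binding cortisol or corticosterone it moves to the nucleus, where it activates genes through glucocorticoid response elements and restrains inflammatory genes by acting on NF-kB and AP-1. In macrophages its ligands lower cytokine production and favour an M2-like state. Several of its targets feed back on the pathway. FKBP51, the product of Fkbp5, lowers the affinity of the receptor for hormone, and 11beta-hydroxysteroid dehydrogenase 1, encoded by Hsd11b1, regenerates active hormone inside the cell.

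The classical response element is an inverted pair of hexamers, written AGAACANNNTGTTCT, which has 12 fixed letters in 15 and reads the same on both strands. RefSeq promoter windows (mouse GRCm38.p6, 250 bases before to 50 after each annotated start) are reported for 7 of the 10 members, with 15 windows in all. Nr3c1 was left out by choice, and Cebpd and Zbtb16 had no window. A perfect element was present in 3 of 32851 windows (0.00913%), and 1 of them lay at a start of Sgk1. The other 2 were windows of Acnat2 and Gm35041. The 250 bases before that Sgk1 start, chr10:21993640-21993889 on the plus strand, are shown because they hold the only perfect element among the members' windows, with the element in capitals.

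Sgk1: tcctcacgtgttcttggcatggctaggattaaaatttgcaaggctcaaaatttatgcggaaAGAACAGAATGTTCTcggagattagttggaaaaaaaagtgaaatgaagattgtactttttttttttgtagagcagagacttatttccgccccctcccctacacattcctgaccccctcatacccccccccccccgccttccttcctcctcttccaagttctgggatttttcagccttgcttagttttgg

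The element began 189 bases before the start, at chr10:21993701-21993715. Of the members' 15 windows, Sgk1 had 6, Tsc22d3 had 3 and Per1 had 2, so best matches were picked from unequal numbers of windows. The best match in each member's windows is set below for comparison, with the letters that equal the element in capitals.

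Sgk1: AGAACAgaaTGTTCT
Hsd11b1: AGtAaAcatTGTcCa
Tsc22d3: cGAgCAgttTtTaCT
Ddit4: AGgAgAgaacGTTgc
Per1: gagACAtccTGaTCg
Klf9: gGAACggaacGgTCg
Fkbp5: tGAAgAggcgGagaT

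Sgk1 matched 12 of the 12 fixed letters, Hsd11b1 and Tsc22d3 matched 8, Ddit4, Per1 and Klf9 matched 7 and Fkbp5 matched 6. Of all windows, 57.0% had a match of at least 8 letters and 94.0% of at least 7, and 0.164% had one of 11 or more. The single hexamer, AGAACA or TGTTCT on either strand, was present in 4 of the 15 windows, against 19.0% of all windows, and those 4 belonged to Sgk1 and Tsc22d3. The Sgk1 window shown held 3 hexamers, both of the full element and another TGTTCT, not capitalised, before it. A match describes the letters of a window and says nothing about binding, and elements farther away, such as the intronic ones known for Fkbp5, lie outside it.

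The labels were checked on Ms4a8a, whose log2 levels were 7.40, 7.90 and 8.15 on arrays 1, 2 and 3 of the Ms4a8a clone, against 3.07, 3.32 and 3.22 on those of the vector clone. The clones did not overlap, and the gene rose (log2 difference 4.61, SE 0.20, limma adjusted p = 0.0121). Macrophage markers had a mean level over 10 genes of 10.1 to 10.9 on every array. Of the 10, only Mrc1 lay below the median gene, and it read no higher than 4.74 on any array. The measured markers of B cells (3), T cells (5), fibroblasts (5) and epithelium (4) all lay below the median gene, between 2.77 and 5.62. No macrophage marker passed between the clones in either limma model, with 1 of 10 at an unadjusted p under 0.05 without and 5 with the block, against 3.2% and 13.3% of all genes. The largest differences were those of Itgam (-0.76, blocked adjusted p = 0.0669) and Lyz2 (0.34, 0.189), and their part in the members' differences was not tested. The scale has no zero, so these low values were not read as absence. Arrays of number 3 stood apart from numbers 1 and 2 across the table. Of all named genes, 59.4% lay above or below both other arrays on number 3 in the same direction in each clone. The members' values below are therefore given for each number, and their clone differences also without number 3.

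The receptor gene itself did not pass in either model. Nr3c1 read 7.82, 7.66 and 8.07 on arrays 1, 2 and 3 of the Ms4a8a clone, and 7.63, 7.56 and 7.96 on those of the vector clone. The ranges overlapped, number 3 was the highest array of each clone, and the Ms4a8a array was the higher one at every number. The log2 difference was 0.13 (95% interval -0.26 to 0.52, limma adjusted p = 1.00), and with the array number as a block the interval was -0.05 to 0.31 (adjusted p = 0.518). Without number 3 the difference was 0.14 (blocked adjusted p = 0.475). Of all genes, the closest to its profile over the 6 arrays were Atxn1, Gpkow and Zfp553. Their values, each centred on its own mean, differed from those of Nr3c1 by a root-mean-square of 0.024, 0.030 and 0.032 log2 units, where Nr3c1 itself varied by 0.18 about its mean.

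None of the 10 members passed in the comparison of the clones without a block (limma, adjusted p under 0.05 over all 16387 genes). Of all genes 0.0427% did, and at an unadjusted p under 0.05 the counts were 0 of 10 members and 524 genes (3.2%). With the array number as a block, the GILZ gene Tsc22d3 rose and the mTOR inhibitor gene Ddit4 fell, 2 of 10 members against a background of 0.909% of all genes. In that model 4 of the 10 had an unadjusted p under 0.05, against 13.3% of all genes. Number 3 stood apart in both clones, and arrays 1 and 2 of the clones were about as alike across numbers as within them, so the pairing of numbers 1 and 2 behind the blocked model rests on the titles. No member had clones whose arrays did not overlap, against 7.88% of all genes, whereas 7 of 10 differed in the same direction at all 3 numbers, 4 higher and 3 lower in the Ms4a8a clone, against 17.2% and 18.9% of all genes (36.1% together). The median log2 difference was -0.04 over the members and -0.005 over all genes. A level in a bulk sample does not separate fewer expressing cells from less RNA per cell.

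**Figure D1:**
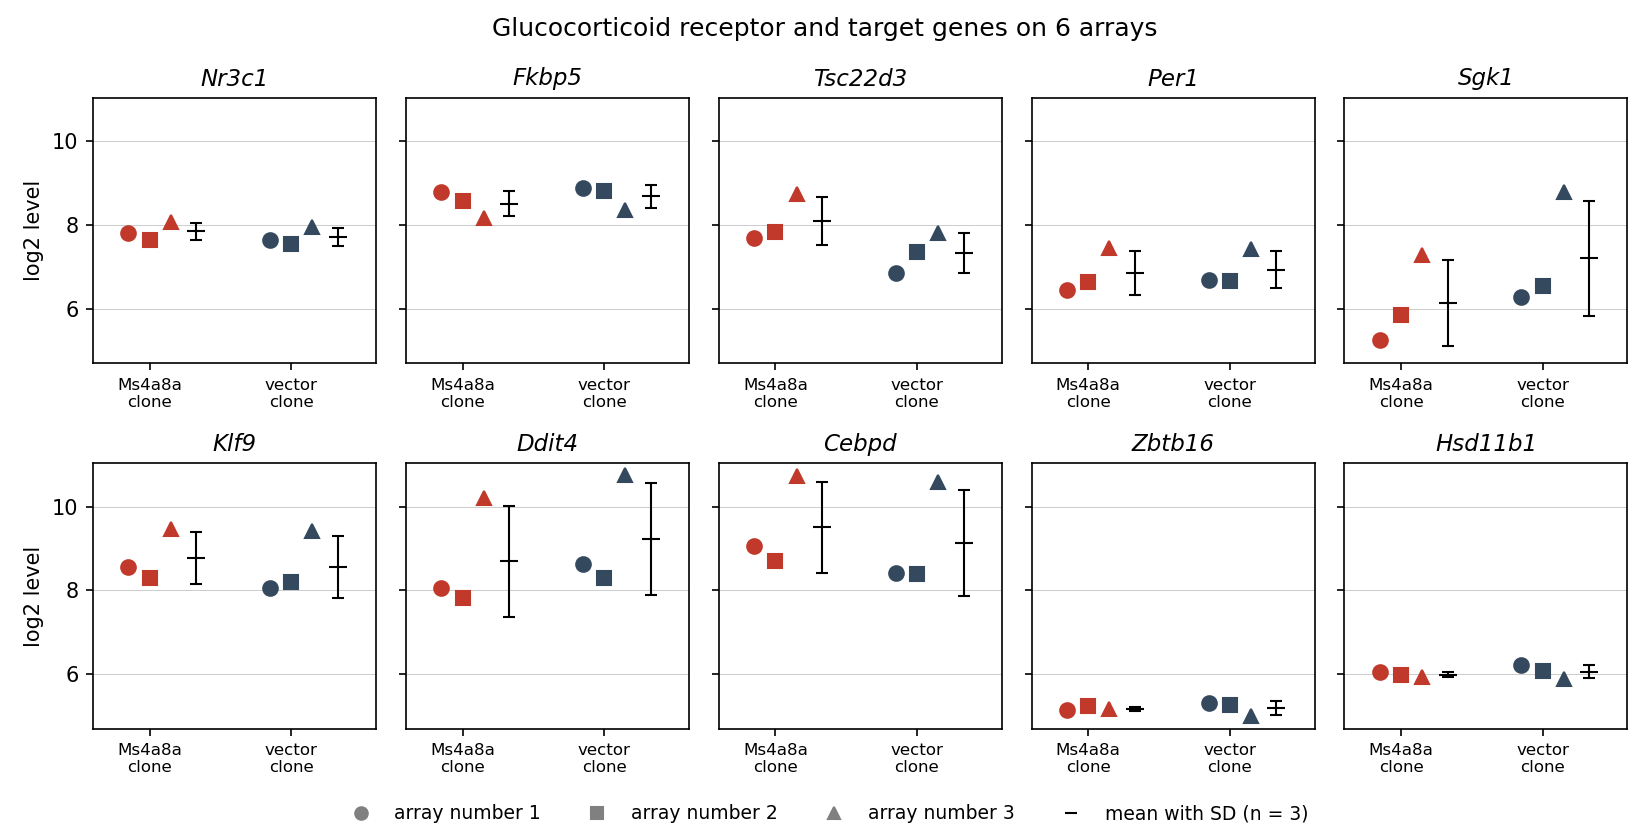
Log2 level of the receptor gene and each target (one panel per gene) on the 3 arrays of the Ms4a8a clone (red, left) and of the vector clone (dark, right), with symbols for the array number and the mean with SD beside them (n = 3). Ddit4, Cebpd, Sgk1 and Klf9 read highest on number 3 in each clone, Fkbp5 read lowest there, and no gene has clones that do not overlap.

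Tsc22d3 encodes the glucocorticoid-induced leucine zipper protein GILZ, which binds and restrains NF-kB and AP-1. Its log2 levels were 7.70, 7.84 and 8.75 on arrays 1, 2 and 3 of the Ms4a8a clone, against 6.85, 7.35 and 7.81 on those of the vector clone. The Ms4a8a array was higher at every number, and only vector array 3 reached the range of the Ms4a8a clone. It was 1.70-fold higher in the Ms4a8a clone, with log2 differences of 0.85, 0.49 and 0.95 at numbers 1, 2 and 3 (mean 0.76, blocked 95% interval 0.50 to 1.03, blocked adjusted p = 0.0469). Without both arrays of number 3 the blocked difference was 0.67 (adjusted p = 0.0400) and without number 2 it was 0.90 (0.0443), while without number 1 it was 0.72 and did not pass (0.145). Without the block Tsc22d3 did not pass (adjusted p = 1.00, interval -0.14 to 1.66).

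Among its relatives, Tsc22d1, which shares the TSC22 domain, went the other way. Its levels were 9.88, 9.71 and 9.34 on arrays 1, 2 and 3 of the Ms4a8a clone, against 10.5, 10.3 and 10.0 on those of the vector clone. All 3 Ms4a8a arrays lay below all 3 vector arrays, and the gene fell, by 0.63 (blocked adjusted p = 0.0227). Without the block it did not pass (1.00), nor did it with the block when number 1 (0.0946) or number 2 (0.116) was left out, while without number 3 it passed (-0.62, 0.0207). Tsc22d2 and Tsc22d4 differed by -0.07 and 0.00. Over all 15 measured relatives of the members, Tsc22d1 alone passed in the blocked model, against 0.909% of all genes, and none passed without the block, against 0.0427%. Without the block 2 had an unadjusted limma p under 0.05, against 3.2% of all genes, and with the block 5 did, against 13.3%. Cebpa, a C/EBP factor of myeloid differentiation, read 7.76, 7.64 and 8.40 in the Ms4a8a clone and 7.002, 7.32 and 7.54 in the vector clone. Its clones did not overlap, and it did not pass (difference 0.64, blocked adjusted p = 0.0906). The difference between Tsc22d3 and Tsc22d1 was not tested.

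The genes with profiles nearest to Tsc22d3 were Adssl1, Tk2 and Abcd4, at root-mean-square distances of 0.15, 0.16 and 0.17 log2 units. Tsc22d3 itself varied by 0.58 about its mean.

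Ddit4 encodes REDD1, an inhibitor of mTOR complex 1 that is also induced by hypoxia and energy stress. It read 8.04, 7.82 and 10.2 on arrays 1, 2 and 3 of the Ms4a8a clone and 8.62, 8.30 and 10.8 on those of the vector clone. The arrays of number 3 were high in each clone, and the Ms4a8a array was the lower of each pair. Its log2 difference was -0.53 on average and -0.58, -0.48 and -0.54 at numbers 1, 2 and 3, a 1.45-fold lower level in the Ms4a8a clone. Ddit4 fell in the blocked model (95% interval -0.71 to -0.35, adjusted p = 0.0436). Without the block the interval was -2.76 to 1.70 (adjusted p = 1.00). The blocked call was kept without number 3 (-0.53, adjusted p = 0.0351) and lost without number 2 (-0.56, 0.169) or number 1 (-0.51, 0.187). Its paralogue Ddit4l read between 3.14 and 3.31 on all arrays.

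Sgk1, the serum- and glucocorticoid-regulated kinase, had the largest difference in size among the members and stood just outside the threshold. Its log2 levels were 5.26, 5.86 and 7.28 on arrays 1, 2 and 3 of the Ms4a8a clone, against 6.29, 6.54 and 8.79 on those of the vector clone. The Ms4a8a array was the lower of each pair, and number 3 was the highest array of each clone. The mean log2 difference was -1.08, a 2.11-fold lower level, with -1.03, -0.68 and -1.52 at numbers 1, 2 and 3 (blocked 95% interval -1.46 to -0.69, blocked adjusted p = 0.0506, without the block 1.00). In the blocked model it passed without number 3 (-0.85, adjusted p = 0.0180) and without number 2 (-1.27, 0.0351), and did not without number 1 (-1.10, 0.103). The related kinase genes Sgk2 and Sgk3 differed by 0.12 and 0.28, and neither passed.

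**Figure D2:**
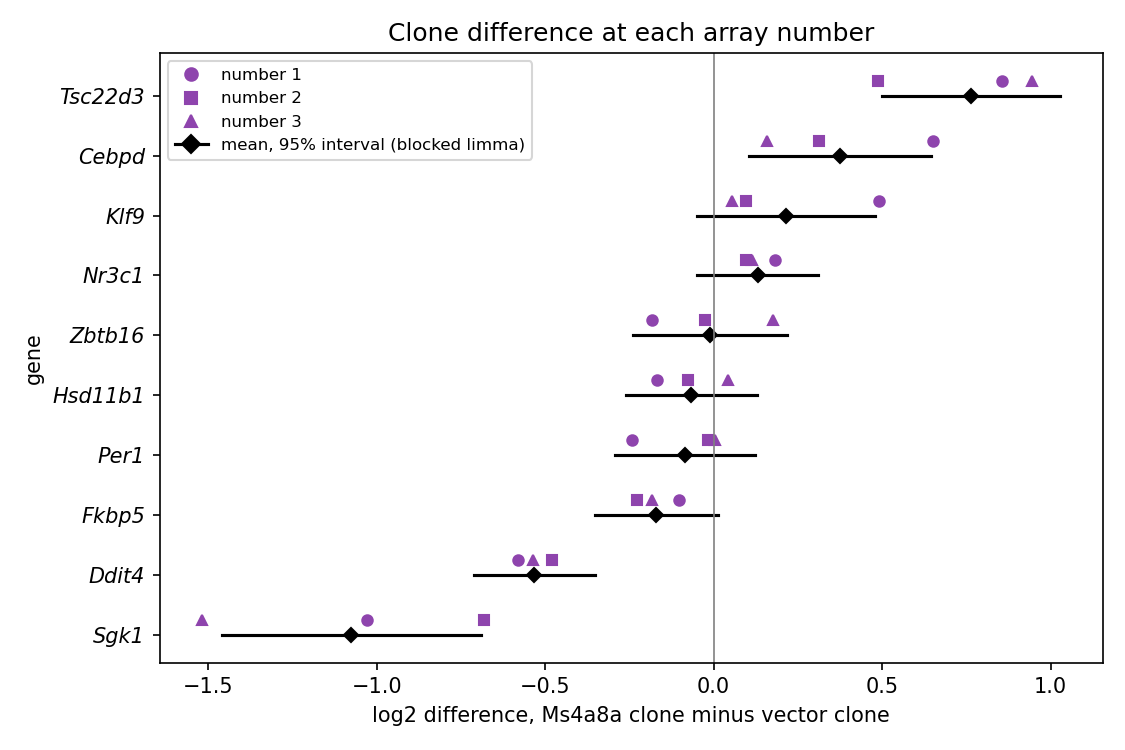
Log2 difference, Ms4a8a clone minus vector clone, of each gene at array numbers 1, 2 and 3 (purple symbols), and their mean with the 95% interval of the blocked limma model (black). Tsc22d3 lies at 0.76, Ddit4 at -0.53 and Sgk1 at -1.08, and the intervals of Nr3c1, Klf9, Per1, Fkbp5, Zbtb16 and Hsd11b1 include 0.

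The transcription factor genes among the targets did not pass in either model. Cebpd, a C/EBP factor of acute phase and myeloid gene control, read 9.07, 8.71 and 10.7 on arrays 1, 2 and 3 of the Ms4a8a clone, against 8.42, 8.39 and 10.6 on those of the vector clone. Its differences of 0.65, 0.31 and 0.16 at the 3 numbers were all positive, with a blocked interval of 0.10 to 0.64 and a blocked adjusted p of 0.233 (0.48 and 0.0939 without number 3). Klf9, a Krüppel-like factor, read 8.55, 8.29 and 9.47 in the Ms4a8a clone and 8.05, 8.20 and 9.42 in the vector clone. The clones differed by 0.49 at number 1 and by 0.10 and 0.05 at numbers 2 and 3 (blocked interval -0.05 to 0.48, adjusted p = 0.471). Without number 3 its difference was 0.29 (0.289), and its relative Klf13 differed by 0.34 over all arrays (blocked adjusted p = 0.192).

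The clock gene Per1 read 6.45, 6.65 and 7.44 in the Ms4a8a clone, against 6.69, 6.66 and 7.44 in the vector clone. At numbers 2 and 3 its arrays were within 0.02 log2 units of each other, and the blocked interval of the difference was -0.29 to 0.12 (adjusted p = 0.739), with a difference of -0.13 without number 3 (0.562). Zbtb16, the zinc finger repressor PLZF, read between 5.13 and 5.22 in the Ms4a8a clone and between 4.98 and 5.31 in the vector clone, with a blocked interval of -0.24 to 0.22 (adjusted p = 0.977), and a difference of -0.10 without number 3 (0.618). Over the 6 arrays 40.1% to 43.5% of genes lay below it, so it read under the median gene on every array.

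The genes that set hormone sensitivity did not pass in either model. Fkbp5 read 8.78, 8.58 and 8.18 on arrays 1, 2 and 3 of the Ms4a8a clone, against 8.88, 8.81 and 8.36 on those of the vector clone. The Ms4a8a array was lower at every number, by 0.10, 0.23 and 0.18, and number 3 was the lowest array of each clone (blocked interval -0.35 to 0.01, adjusted p = 0.409). Without number 3 the difference was -0.17 (0.406). Hsd11b1 read 6.04, 5.99 and 5.93 in the Ms4a8a clone, against 6.21, 6.06 and 5.89 in the vector clone, and its blocked interval was -0.26 to 0.13 (adjusted p = 0.788). Without number 3 its difference was -0.12 (0.538).

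The 22 measured genes of receptor chaperones and coregulators had no call in either limma model, against 0.0427% of all genes without and 0.909% with the block, and 1 had an unadjusted p under 0.05 in each model, against 3.2% without and 13.3% with the block. Of these, 18 were lower and 4 higher in the Ms4a8a clone, against 8447 lower and 7940 higher of all 16387 genes. Their median log2 difference was -0.08 (-0.005 over all genes). The coactivator Ncoa3 read 8.13, 8.13 and 8.17 in the Ms4a8a clone and 8.44, 8.47 and 8.55 in the vector clone. Its clones did not overlap (difference -0.34), and it did not pass (adjusted p = 0.846, blocked 0.114). Med14, a Mediator subunit, differed by -0.19 (blocked adjusted p = 0.420). Fkbp4, the immunophilin FKBP52 that competes with FKBP51 for the receptor complex, differed by -0.08.

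The ligand supply and steroid receptor list, of which Hsd11b1 is also a member, had 8 measured genes and no call in either limma model, with 0 at an unadjusted p under 0.05 without and 1 with the block, against 3.2% and 13.3% of all genes. H6pd, which makes the NADPH that Hsd11b1's enzyme uses, was higher in the Ms4a8a clone at every number. It read 8.42, 8.36 and 7.60 there and 7.97, 7.83 and 7.27 in the vector clone (difference 0.43, blocked adjusted p = 0.0859), and it passed in the blocked model without number 3 (0.49, adjusted p = 0.0428). The steroid exporter gene Abcb1b differed by -0.11 (blocked adjusted p = 0.725). Hsd11b2, Abcb1a, Pgr and Esr1 read no higher than 3.19 on any array.

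Of 36 further glucocorticoid-induced genes, 1 fell in the blocked model, none rose and 35 did not pass, against 0.452% of all genes down and 0.458% up. The gene that fell was Pik3r1, the p85alpha regulatory subunit of phosphoinositide 3-kinase. It read 6.33, 6.23 and 5.92 on arrays 1, 2 and 3 of the Ms4a8a clone, against 7.23, 7.22 and 6.81 on those of the vector clone. All 3 Ms4a8a arrays lay below all 3 vector arrays, and the difference of -0.93 (blocked adjusted p = 0.00836, without the block 0.548) passed in the blocked model whichever number was left out, with adjusted p from 0.00547 to 0.0443. The G-protein regulator gene Rgs2 differed by 0.52 (blocked adjusted p = 0.0646) and the metallothionein gene Mt2 by -0.51 (0.343). Without the block none of the 36 passed, and 2 had an unadjusted limma p under 0.05, against 3.2% of all genes. With the block 10 of the 36 had one, against 13.3% of all genes. In all 20 of the 36 were higher and 16 lower (7940 and 8447 of all 16387 genes), with a median of 0.01.

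None of the 17 genes that glucocorticoids are known to repress passed in either limma model, and 1 had an unadjusted p under 0.05 without and 2 with the block, against 3.2% and 13.3% of all genes. Of these, 5 were higher and 12 lower in the Ms4a8a clone (7940 and 8447 of all 16387 genes), with a median of -0.07. The chemokine genes Ccl4 and Ccl3 differed by -0.91 and -0.48 (blocked adjusted p = 0.341 and 0.513), mostly at number 3. Ccl4 read 6.94, 7.14 and 9.12 in the Ms4a8a clone and 7.18, 7.58 and 11.2 in the vector clone. The gene with an unadjusted p under 0.05 without the block was Csf2, named here after its values were seen. It read between 4.12 and 4.90, and its clones did not overlap. Csf2 was higher in the Ms4a8a clone at every number (difference 0.51, blocked adjusted p = 0.0702).

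Array number 3 differed from numbers 1 and 2 by more than the clones differed from each other at most of these genes. The comparison is a description with no test, because number 3 was picked with earlier results known and has 1 array per clone. What distinguished the cultures or the handling of number 3 is not given in the labels. Ddit4 read 10.2 on array 3 of the Ms4a8a clone, against 8.04 and 7.82 on its arrays 1 and 2, and 10.8 on array 3 of the vector clone, against 8.62 and 8.30. That is 4.87-fold above the mean of the other arrays in the Ms4a8a clone and 4.89-fold in the vector clone, whereas arrays 1 and 2 differed by 0.23 and 0.33 log2 units. Only 0.415% of all genes had an upward shift of at least 2.28 log2 units in each clone, the smaller of the shifts of Ddit4.

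Cebpd and Sgk1 shifted to a similar degree. On number 3 Cebpd was 3.62-fold above the mean of the other arrays in the Ms4a8a clone and 4.53-fold in the vector clone. Sgk1 was 3.28-fold above the mean of its other arrays in the Ms4a8a clone and 5.20-fold in the vector clone. These 3 genes lay at least 1 log2 unit beyond both other arrays in each clone, 3 of 10 members against 3.12% of all genes, and no member lay that far below, against 2.29%. Only 2 of the 10 members lay below the median gene, against 8193 of all 16387 genes. The shares of all genes, here and below, were not matched for level.

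Klf9, Per1 and Tsc22d3 shifted less. Klf9 was 2.07-fold higher on number 3 in the Ms4a8a clone and 2.45-fold in the vector clone, and Per1 was 1.86-fold and 1.70-fold higher in the same order. With a gap of 0.5 log2 units, 5 of 10 members lay above both other arrays and none below, against 8.11% and 8.1% of all genes. Tsc22d3 was 1.98-fold higher in the Ms4a8a clone and 1.63-fold in the vector clone, but its vector arrays 1 and 2 were themselves 0.51 log2 units apart. Nr3c1 was 1.26-fold higher on number 3 in the Ms4a8a clone and 1.29-fold in the vector clone.

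Fkbp5 went the other way. It was 1.42-fold lower on number 3 in the Ms4a8a clone and 1.40-fold lower in the vector clone, each beyond both other arrays. Hsd11b1 also read lowest on number 3, by 0.05 log2 units in the Ms4a8a clone and 0.17 in the vector clone. Zbtb16 read 5.16 on number 3 of the Ms4a8a clone, between its other arrays, and 4.98 in the vector clone, below them. Number 3 thus lay above both other arrays for 7 of 10 members and below for 2, against 26.3% and 33.1% of all genes. The shift of Sgk1 was smaller in the Ms4a8a clone by 0.66 log2 units, the largest gap between the clones among the members, and this was not tested.

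**Figure D3:**
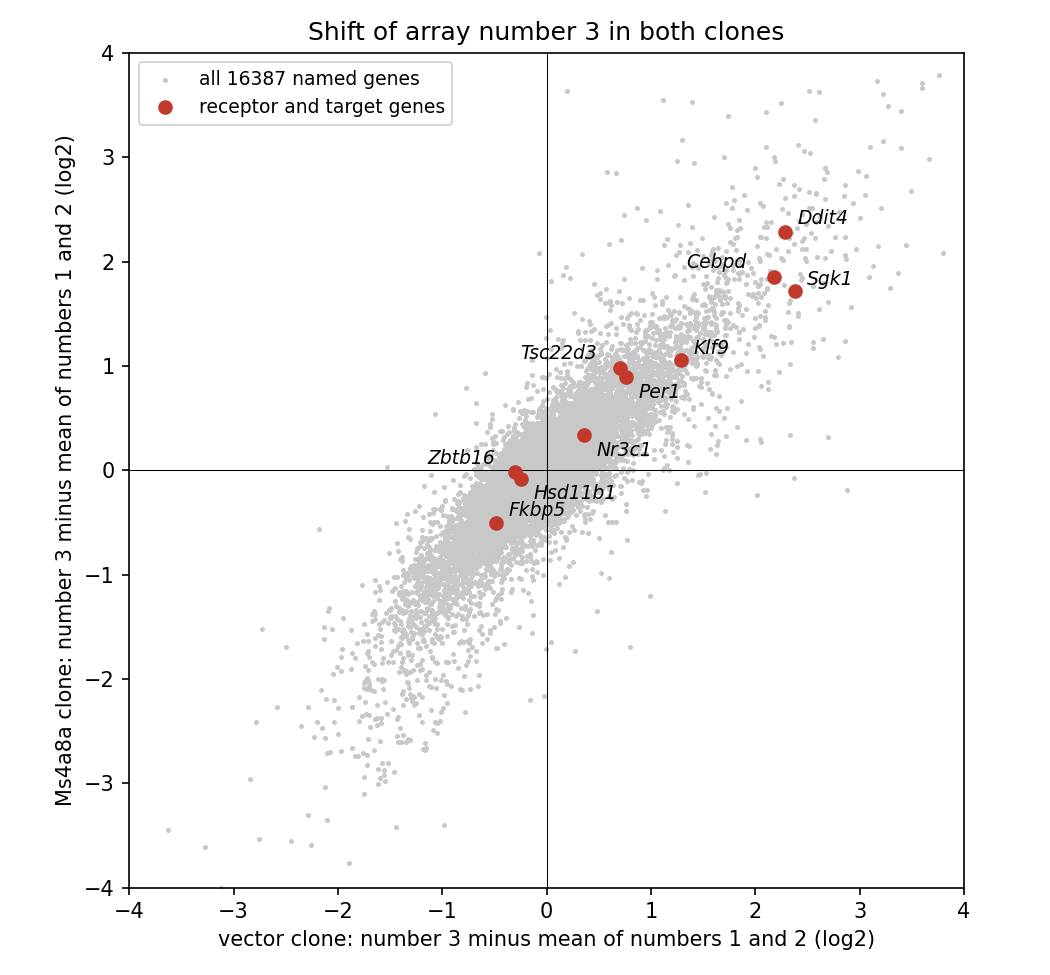
Log2 shift of array number 3 from the mean of numbers 1 and 2 in the Ms4a8a clone (vertical) and the vector clone (horizontal), for the receptor gene and its targets (red) and for all 16387 named genes (grey, 25 lie outside the axes). Ddit4, Cebpd and Sgk1 lie far into the upper right, Klf9, Per1 and Tsc22d3 nearer the centre, and Fkbp5 lies at about -0.5 in each clone.

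Related genes on number 3 are named here after their values were seen. Of the 36 further induced genes, 10 lay at least 0.5 log2 units above both other arrays in each clone and none below. The shares of all genes were 8.11% and 8.1%. Socs3, an inhibitor of cytokine signalling, was 2.10 above the mean of the other arrays in the Ms4a8a clone and 1.72 in the vector clone. The mRNA-destabilising factor Zfp36 was 1.42 and 1.74 above in the same order, and the NF-kB inhibitor Nfkbia 1.18 and 1.58. All 3 are also induced by inflammatory stimuli. The others were Dusp1, Cdkn1a, Bcl6, Irak3, Lpin1, Foxo1 and Cebpb.

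The 17 inflammatory genes that glucocorticoids repress had a median shift of -0.12 on number 3 in the Ms4a8a clone and 0.04 in the vector clone, and a few of them stood far above it. By mean level 11 of the 17 lay below the median gene, so the median shift includes many genes of low level. Cxcl2 read 8.21 on array 3 of the Ms4a8a clone, against 3.88 and 3.40 on its arrays 1 and 2, and 8.76 on array 3 of the vector clone, against 3.57 and 3.37. Tnf read 10.96 on array 3 of the Ms4a8a clone, against 8.85 and 8.67, and 11.2 on that of the vector clone, against 8.83 and 8.72. With Ccl3 and Ccl4, 4 of 17 lay at least 1 log2 unit above both other arrays in each clone, against 3.12% of all genes, and Icam1 joined them at 0.5 (5 of 17 against 8.11%). Number 3 was above both other arrays by any gap in 7 of 17 and below in 2, against 26.3% and 33.1%. Cxcl10 was lower on number 3 by 1.65 in the Ms4a8a clone and differed by 0.04 in the vector clone. Il6, Il12b, Nos2 and Ifnb1 read no higher than 4.96 on any array, and Ptgs2 was lower on number 3 in each clone, by 1.65 in the Ms4a8a clone and 0.81 in the vector clone.

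Chaperone and coregulator genes had a median shift of -0.23 in the Ms4a8a clone and -0.29 in the vector clone. Bag1, Med14 and Hdac3 lay at least 0.5 log2 units below both other arrays, 13.6% of the list against 8.1% of all genes. No gene of the list lay that far above, against 8.11%. Macrophage markers moved with number 3 as well. Of the 10, 9 lay above both other arrays in each clone by any gap and none below, against 26.3% and 33.1% of all genes. At a gap of 0.5 log2 units 3 of the 10 lay above and none below, against 8.11% and 8.1%. At 1 log2 unit 2 of the 10 lay above, against 3.12%. The median shift of the macrophage markers was 0.43 in the Ms4a8a clone and 0.45 in the vector clone. Adgre1, which encodes F4/80, shifted by 2.12 and 2.48 in the same order. The part of these markers in the shift of the receptor's targets was not tested. Klf13, a relative of Klf9, lay above the mean of the other arrays by 1.51 in the Ms4a8a clone and 1.27 in the vector clone.

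**Figure D4:**
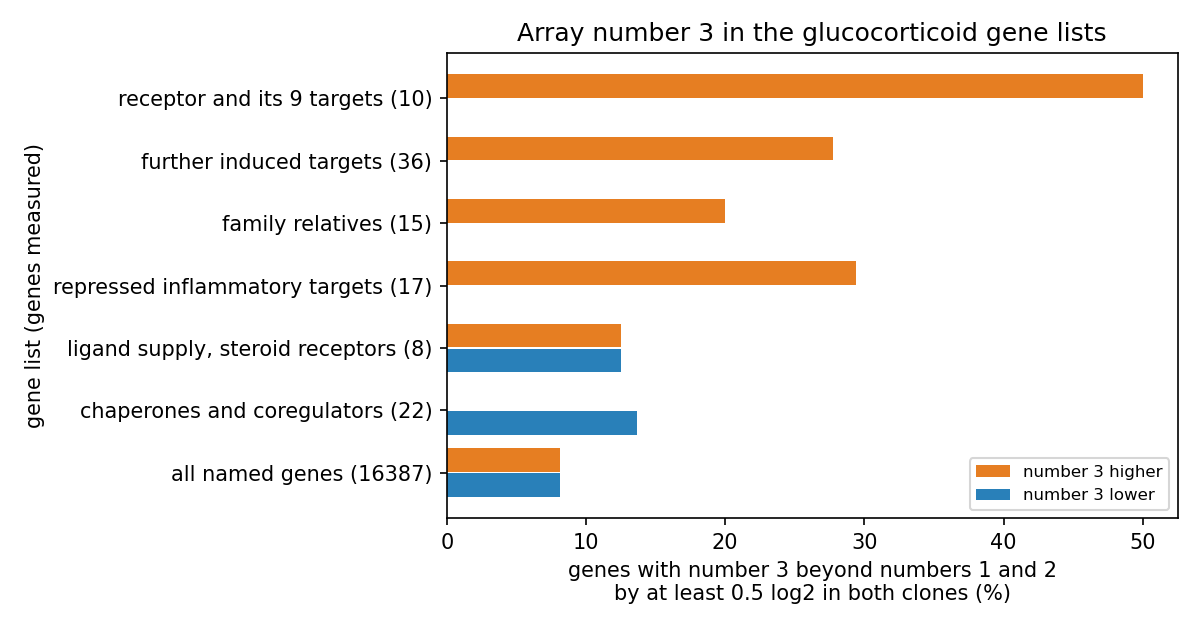
Share of genes in each list that lay at least 0.5 log2 units above (orange) or below (blue) both other arrays on number 3 in each clone, with the number of genes measured. The receptor and its targets stand at 5 of 10 higher, further induced genes at 27.8%, repressed inflammatory genes at 29.4%, and all named genes at 8.11% higher and 8.1% lower. Macrophage markers are not drawn and had 3 of 10 higher.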

How the data were processed

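The deposited values were on a log2 scale, 1 per probe set and array, and the 6 columns held the same sorted values, as quantile normalisation by the authors gives. Biotin-labelled cRNA was made following Affymetrix's standard protocol, per the labels. The summary method, background correction and software are not given in the sources used here. Of 17370 probe sets, 64 controls and 919 without a symbol were left out. The probe sets' numbers were matched to RefSeq gene IDs (GRCm38.p6), which replaced 1773 older symbols. The number of arrays limits the precision.

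Clones were compared, Ms4a8a over vector, with limma 3.58.1 in R 4.3.3 (lmFit and eBayes, two-sided, Benjamini-Hochberg over 16387 genes, threshold 0.05) with no filter, and tested on simulated data. Nothing in the labels says whether arrays came from separate cultures, so p-values measure the spread between arrays, which may be technical.

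Same-numbered arrays deviated together from their clone means (correlations across genes of 0.709, 0.809 and 0.865 at numbers 1, 2 and 3), above the limit of 0.1 for treating the numbers from the titles as pairs. Unlike numbers 1 and 2 correlated about as well (Ms4a8a array 2 with vector array 1 at 0.713, Ms4a8a array 1 with vector array 2 at 0.617), so these values mostly reflect number 3 and do not show that 1 and 2 are pairs. The model with the array number as a block is called blocked. Rose and fell are used of genes past the threshold in the model named.

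The members and lists were chosen with earlier results of these data known. All members were named, with genes called in each list or otherwise its 2 largest differences above the median level, relatives of members, and the 3 nearest profiles of Nr3c1 and Tsc22d3. Genes listed but not measured were not analysed here. Alternatives were a filter at the 25th percentile, a variance trend, array weights, and arrays or numbers left out.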

Additional observations from a re-analysis of the deposited data

How the results depend on the processing

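The count of genes called between the clones was 7 without the block, and 149 with the array number as a replicate block, where 2 of the 10 members passed instead of 0. It was 12 with a variance trend, 47 with array weights, 0 to 8 when single arrays were left out, and 147 without both arrays of number 3. At the counts of 0 (without Ms4a8a array 2, vector array 1 or vector array 3), 447, 330 and 783 genes had an unadjusted limma p under 0.05. With the block it was 434 without number 3, 104 without number 2 and 101 without number 1, with 3, 2 and 0 members called. Members on which number 3 stood apart in both clones were 3 at a gap of 1 log2 unit, 5 at 0.5 and 9 at any gap. At any gap 59.4% of all genes did so. At 1 log2 unit 3.12% of all genes were higher and 2.29% lower, and at 0.5 8.11% and 8.1%.

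None of the following passed in any of the settings in which its direction turned. Leaving out single arrays without the block turned the clone difference of Per1 (-0.38 to 0.17), Klf9 (-0.14 to 0.64), Ddit4 (-1.29 to 0.23), Cebpd (-0.24 to 1.10), Zbtb16 (-0.11 to 0.055), Hsd11b1 (-0.15 to 0.0101), Med14 (-0.40 to 0.0916), Abcb1b (-0.34 to 0.23), Mt2 (-1.05 to 0.054), Ccl4 (-1.65 to 0.36), Ccl3 (-1.20 to 0.66) and Klf13 (-0.17 to 0.76). Such fits set 3 arrays against 2 and lose the balance of number 3. Zbtb16 was 0.0752 with the block and without number 1, and Abcb1b was 0.0074 with array weights and 0.0195 without number 3, with or without the block; the cause was not tested. With single arrays left out Ms4a8a was between 4.44 and 4.82, and it was 4.38 with array weights. It lost its call without Ms4a8a array 2 or any 1 of the vector arrays (adjusted p 0.0998 to 0.234). Without the block Pik3r1 passed with array weights (-0.92, adjusted p = 0.0196) and without number 3 (-0.95, 0.0128). With all arrays, the replicate block changed the calls of Tsc22d3, Ddit4, Pik3r1 and Tsc22d1 among the named genes. Without number 3, Sgk1 (0.0180 with the block, 0.172 without), H6pd (0.0428, 0.0956) and Mt2 (0.00801, 0.572) also passed with the block only.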
